A study of Mus musculus with 5 samples.

Results

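Squamous and columnar epithelial cells of the same mouse colon tumors were compared within 4 single-cell libraries, so that each library supplied both types and served as its own control. Of 7396 cell barcodes kept in these libraries (8491 in all 5 libraries of the series), 1058 were squamous and 4680 columnar, 5738 together. The cells were selected on their own UMI counts (unique molecular identifiers, each standing for 1 captured RNA molecule), among barcodes with at least 500 genes and at most 15% mitochondrial counts. A squamous cell had at least 10 UMIs of Krt5 and Krt14, the keratin pair of basal stratified epithelium, and more of these than of Krt8, Krt18 and Lgals4. A columnar cell had at least 5 UMIs of Krt8, Krt18 and Lgals4, the simple-epithelium keratin pair and a galectin of gut epithelium, and more of these than of Krt5 and Krt14. Both had fewer than 3 UMIs over Ptprc, Tyrobp, Csf3r, Pecam1, Cdh5 and Dcn, which mark leukocytes, endothelium and fibroblasts.

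All 4 libraries came from WT mice, on a C57BL/6J background or on one that mixed C57BL/6J; 129, that carried colon tumors induced by azoxymethane and dextran sulfate sodium (AOM/DSS), a carcinogen followed by an agent that damages the epithelium, and every one of them had received repeated cycles of Irinotecan and then 5-FU. No untreated tumor was among the libraries analysed here, so nothing below separates treatment from tumor. The libraries were day 1 replicate 1, day 1 replicate 2, day 3 and day 6, and values per library are given in this order throughout. The study calls the day 1 pair biological replicates and early, groups day 3 with day 6 as late, and gives the days both as days of treatment and as days after it. The first day 1 library and the day 3 library carried a single index and were sequenced on a BGI MGI-Seq, whereas the remaining pair carried dual indexes and were sequenced on a NovaSeq6000. The fifth library, a fibroblast dissociation of untreated WT colon, held 0 squamous cells beside 354 columnar cells (which allows a share of up to 1.04%, exact 95% binomial limit) and entered no comparison.

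Colon is lined by a single layer of columnar epithelium, in which WNT-driven stem cells at the crypt base give rise to absorptive colonocytes, mucus-secreting goblet cells and enteroendocrine cells under factors such as CDX2 and HNF4A. Stratified squamous epithelium, as in the skin, the oesophagus and the anal canal, is built on a KRT5 and KRT14 positive basal layer held to its basement membrane by hemidesmosomes, depends on the factor p63, and hardens its upper layers with cornified envelope proteins. The comparison asks how far cells that differ in a few keratins inside one tumor also differ in the rest of these programs.

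Squamous cells numbered 48, 170, 201 and 639, and columnar cells 497, 1446, 1042 and 1695. The squamous share of gated cells was 8.81%, 10.5%, 16.2% and 27.4% (exact 95% binomial intervals 6.57 to 11.5, 9.07 to 12.1, 14.2 to 18.3 and 25.6 to 29.2, which cover counting error only). The share was higher in both late than in both early libraries, with 2 libraries on each side. Early and late libraries also differed in sex-linked transcripts and in Krt5 and Krt14 of non-epithelial barcodes, both given below. These cannot be told apart from stage. Median depth per cell was 4516.5, 2587, 3135 and 5939 UMIs in squamous and 3318, 4792.5, 3194 and 2154 UMIs in columnar cells, so squamous cells were the deeper type in day 1 replicate 1 and day 6 only. Pairs of libraries had 7 to 41 cell barcodes in common. The summed counts ranged from 323987 UMIs, in the squamous cells of day 1 replicate 1, to 12197092.

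The values that chose the cells are a description. As CPM, a gene's count divided by all counts of the sum and multiplied by the same constant in each, Krt14 reached 8152, 18967, 5430 and 9814 in squamous and 184, 189, 423 and 585 in columnar cells, and Krt8 ran the other way with 448, 973, 1117 and 928 against 2174, 4050.3, 2543 and 5824. Many cells carried UMIs of both sets. The limits of both gates were met by 43, 178, 279 and 874 cells, of which 35, 139, 181 and 572 were called squamous by the larger sum and 8, 37, 94 and 294 columnar. Just inside the squamous limit, with 10 or 11 UMIs, lay 4, 4, 12 and 22 cells, and just outside it, with 8 or 9, lay 1, 3, 6 and 18. The columnar limit had 47, 79, 42 and 65 cells at 5 or 6 UMIs and 29, 59, 18 and 26 at 3 or 4, and 19, 49, 33 and 72 cells were left out at exactly 3 UMIs of the genes that bar other cell types.

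Free RNA in the droplets gives every cell some counts of genes it does not express. It was gauged in barcodes with at least 5 UMIs of those barring genes, taken here as non-epithelial (114, 582, 71 and 239 cells, median 2884, 2782.5, 6152 and 3891 UMIs). Doublets with an epithelial cell were not removed from these barcodes, so their epithelial RNA may exceed free RNA. In day 3 they were deeper than squamous (median 3135 UMIs) and columnar cells (3194). The free RNA share below is the share in these barcodes. Krt5 and Krt14 made up 0.0774%, 0.0656%, 0.175% and 0.227% of their UMIs, against 1.37%, 2.60%, 1.09% and 1.65% in squamous and 0.0267%, 0.0244%, 0.0907% and 0.111% in columnar cells. These keratins were no higher in columnar than in non-epithelial barcodes in any library, an outcome that the gates favour. A columnar cell had to hold fewer of them than of Krt8, Krt18 and Lgals4, and non-epithelial barcodes had no such limit. The comparison therefore cannot tell whether columnar cells hold Krt5 and Krt14 from free RNA alone. The level of these keratins in both was higher in day 3 and day 6 than on day 1. Krt8, Krt18 and Lgals4 stood closer to the free RNA level. They made up 0.289%, 0.366%, 0.484% and 0.313% of non-epithelial UMIs, against 0.519%, 0.723%, 0.731% and 1.05% in columnar cells. More than 2 times their non-epithelial share was found in 214, 561, 164 and 1316 columnar cells. For Krt5 and Krt14 such a share was found in 48, 170, 201 and 611 squamous cells. At the median columnar depth, the non-epithelial share of Krt8, Krt18 and Lgals4 amounts to more than 5 UMIs in every library. A barcode could thus pass the columnar limit without being a columnar cell. How many did was not tested, and columnar here means only that the gate was passed. Markers of several other cell types were summed in both gates. Over 9 neutrophil markers the summed level was 51.4 to 299 CPM in squamous, 38.6 to 193 in columnar and 632 to 7430 in non-epithelial barcodes. Over 11 macrophage markers it was 210 to 522, 312 to 589 and 639 to 12209, over 11 fibroblast markers 92.6 to 274, 107 to 314 and 2451 to 4658, over 9 endothelial markers 30.9 to 67.9, 41.7 to 80.2 and 621 to 2091, and over 10 T cell markers 18.5 to 58.0, 12.8 to 99.0 and 44.0 to 212. In day 3 the gates were near the non-epithelial barcodes for macrophage markers, with 497 CPM in squamous, 359 in columnar and 639 in non-epithelial barcodes, and squamous cells were for T cell markers, with 58.0, 32.1 and 62.6. B and plasma cell RNA, over 9 markers, was at 2537, 1058, 285 and 11861 CPM in squamous, 6838, 4803, 402 and 23478 in columnar and 10664, 6051, 209 and 12582 in non-epithelial barcodes, so that both gates stood above the non-epithelial level in day 3 and columnar cells did in day 6. Red blood cell genes, mostly hemoglobins, 5 in all, summed to 642, 6445, 4919 and 85.9 CPM in squamous and 6697, 12585, 65.4 and 705 in columnar cells, with 791, 5117, 53.9 and 90.8 in non-epithelial barcodes. They were higher in columnar cells in 3 libraries and in squamous cells in day 3.

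Counts were summed per library and type, and the 8 sums were fitted with edgeR's quasi-likelihood test with the library as a block, leaving out the 11 genes that chose the cells. Differences are log2 units, squamous minus columnar, and adjusted p-values are Benjamini-Hochberg values over 12375 genes. Errors are the SD of the 4 library differences (n = 4). The test was past an adjusted p of 0.05 for 1110 genes that were higher in squamous cells (8.97%) and 1502 that were lower (12.1%), and these genes are said below to be higher, lower or called. All 4 libraries had the same sign for 1070 of the former and 1470 of the latter. Large differences leaned to the squamous side: 223 called genes were higher by over 3 log2 units and 44 lower by over 3. For called genes lower by over 2, the median non-epithelial level was 38.9%, 48.3%, 68.4% and 30.4% of the columnar level. For the 223 higher genes it was 12.2%, 10.6%, 24.4% and 30.6% of the squamous level. The part of free RNA in this lean was not tested. Because the cells were gated on genes of the same programs, genes that accompany those keratins had to differ to some degree, and the counts below describe which did and by how much. The shares of 8.97% higher and 12.1% lower are the baseline for every list below. A count near them does not set its list apart.

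The transcription factors of stratified epithelium were among the genes that differed most. Trp63, which encodes p63, was at 389, 252, 165 and 424 CPM in squamous and 8.34, 2.51, 16.1 and 15 in columnar cells, with no overlap between the types. The fitted difference was 5.06 ± 1.30, adjusted p = 0.000247, a 33.3-fold higher level. In cells thinned to 1000 UMIs, 22.9, 14.7, 10.9 and 29.4% of squamous cells had a Trp63 UMI, against 1.01, 0.692, 1.44 and 1.97% of columnar and 2.63, 0, 0 and 8.02% of non-epithelial barcodes. Sox2, a partner of p63 in oesophageal epithelium, was at 136, 80.8, 107 and 217 against 7.86, 3.07, 16.5 and 12.2 CPM (3.90 ± 0.81, adjusted p = 0.00013). Pitx1, a homeobox factor of the hindlimb that oral and anal epithelium also use, was at 499, 313, 558 and 406 against 5.24, 3.91, 56 and 36.6 (4.76 ± 1.70, adjusted p = 0.000763). The columnar level of Pitx1 was near 5 in both early libraries and at 56.0 and 36.6 in day 3 and day 6, where non-epithelial barcodes held 84.1 and 107.

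Of 15 factors of this list that were tested, 11 were higher in squamous cells, none was lower, and the median difference was 1.84 beside −0.05 over all genes. Tfap2c (4.81, adjusted p = 0.000178), Sox15 (4.68, adjusted p = 0.000622), Tfap2a (4.09, adjusted p = 0.000941) and Foxe1 (3.46, adjusted p = 0.00422) had differences above 3. Tfap2c and Tfap2a belong to the AP-2 family, which opens surface ectoderm, and Foxe1 is a forkhead factor of foregut and hair follicle. Factors of the differentiating layers differed less: Zfp750 by 1.84, adjusted p = 0.000404, Ovol1 by 1.53, adjusted p = 0.00263 and Grhl3 by 1.51, adjusted p = 0.0017. The 4 that did not pass were Nr2f2 (0.57), Klf5 (-0.13), Klf4 (-0.39) and Tbx3 (-0.64). Klf5 and Klf4 act in both kinds of epithelium. Tbx3 had library differences of -2.35, -1.85, -0.24 and 1.56, with the sign turned in day 6. On cells thinned to 1000 UMIs 7 of 13 factors tested were called.

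**Figure D1:**
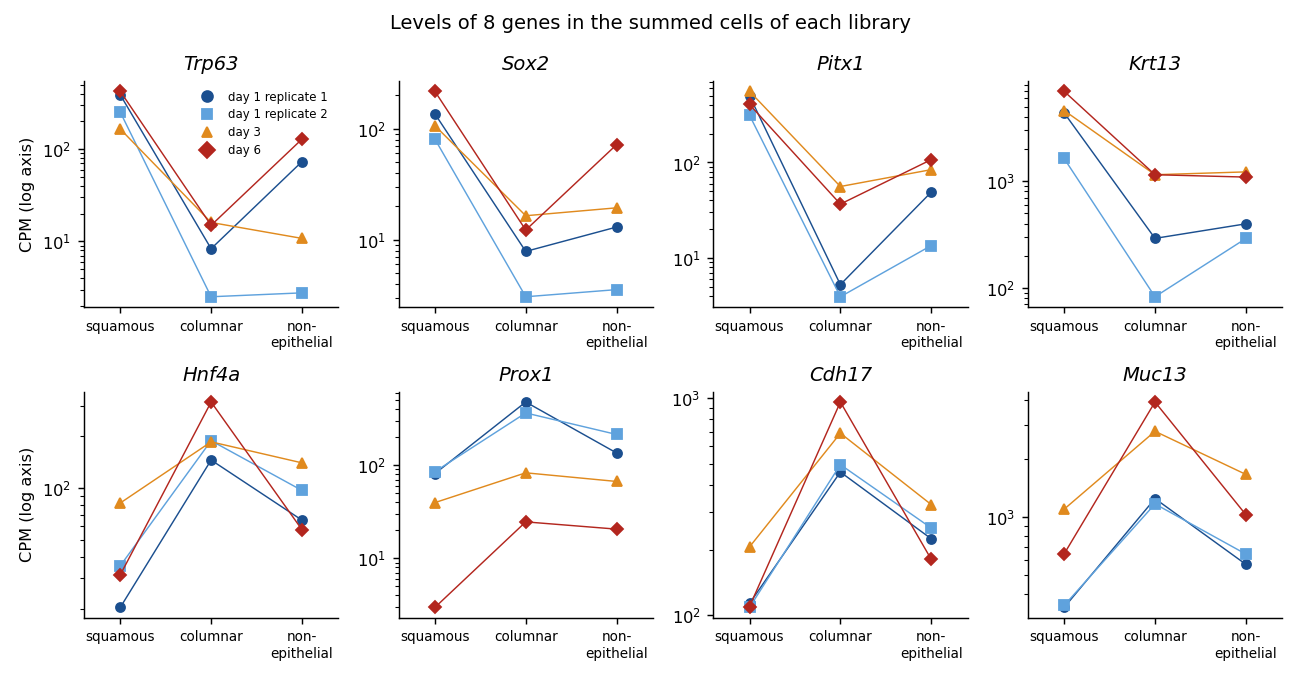
CPM (log axis) of 8 genes in the summed squamous, columnar and non-epithelial barcodes of each library, 1 coloured line per library. Trp63, Sox2, Pitx1 and Krt13 were highest in squamous cells in all 4 libraries, and Hnf4a, Prox1, Cdh17 and Muc13 in columnar cells. The squamous level of Hnf4a lay below the non-epithelial level in each library. Squamous and columnar levels carry TMM scaling factors of 0.860 to 1.17, and non-epithelial levels are unscaled.

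Factors of the intestine showed the reverse. Hnf4a, the nuclear receptor that maintains enterocyte genes, was at 20.3, 35.4, 82 and 31.4 CPM in squamous and 146, 189, 186 and 316 in columnar cells (-2.42 ± 0.91, adjusted p = 0.0012). Non-epithelial barcodes held 65.2, 97, 140.2 and 57.4, more than the squamous cells of the same library in all 4. Cdx2, the homeobox factor that specifies hindgut, was at 11.6, 22.1, 30.1 and 3.21 against 38.6, 42.3, 63.6 and 18.6 (-1.51 ± 0.67, adjusted p = 0.00681), with non-epithelial levels of 47.3, 24.9, 41 and 2.57. Cdx1 (-1.41, adjusted p = 0.00561) went with it.

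Of 19 intestinal factors tested, 14 were lower in squamous cells and none was higher, with a median of -1.56. Nr5a2 (-2.55, adjusted p = 0.00855), Hnf4g (-2.17, adjusted p = 0.00121), Prox1 (-2.15, adjusted p = 0.00106), Foxa2 (-1.94, adjusted p = 0.002), Spdef (-1.93, adjusted p = 0.00311) and Gata6 (-1.82, adjusted p = 0.0118) had the larger differences, and Foxa3 (-1.54), Ihh (-1.47), Sox9 (-0.84) and Elf3 (-0.77) the smaller ones among those called. Spdef directs goblet maturation, Prox1 marks secretory and WNT-high tumor cells, and Ihh is the hedgehog ligand that colonocytes send to stroma. The squamous sum of day 1 replicate 1 held 0 UMIs of Gata6, so its library difference of −7.00 depends on the prior count. Isx (-1.61, adjusted p = 0.0504), Atoh1 (-1.68), Vdr (-0.17) and Foxa1 (0.14) were among those not called. On thinned cells 7 of 15 tested were called lower, and without the library block 5 of 19.

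**Figure D2:**
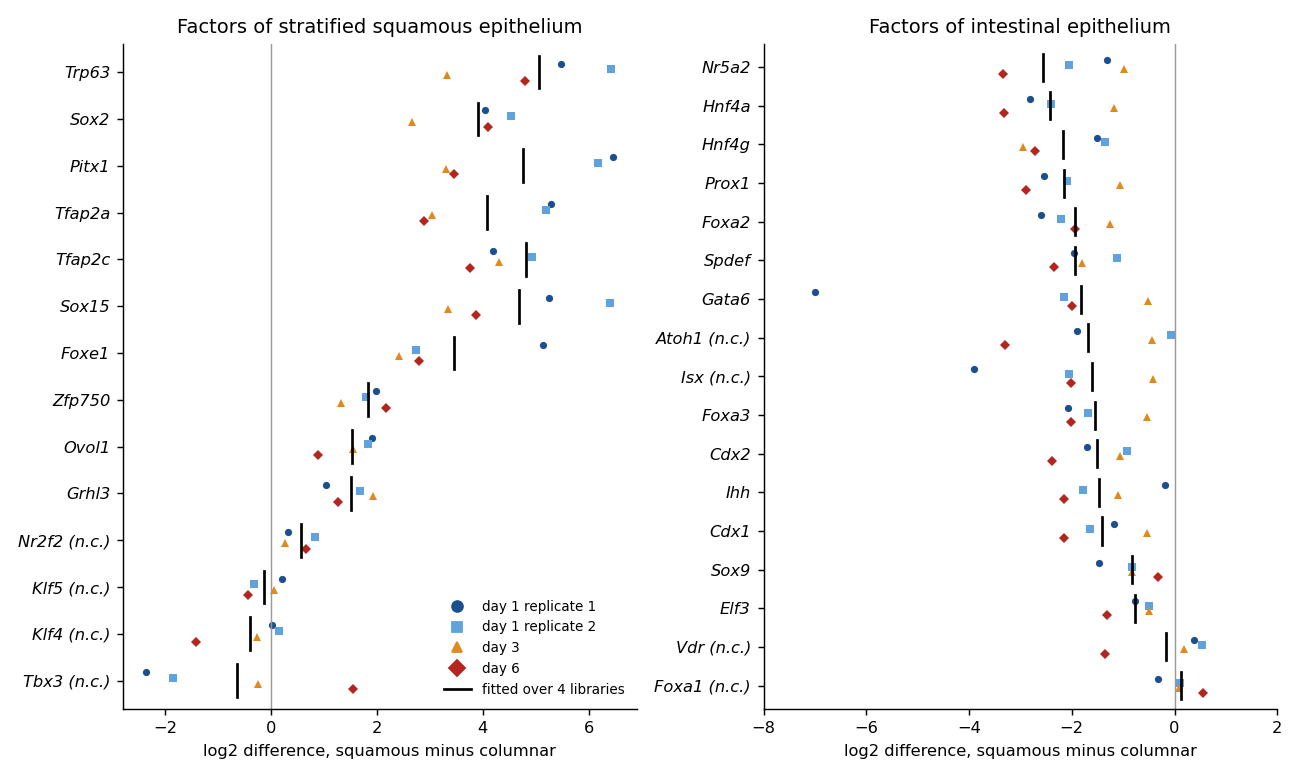
Log2 difference (squamous minus columnar) of transcription factors of stratified (left) and intestinal (right) epithelium, 1 coloured point per library, with the fitted value as a black bar and n.c. for genes not called. Of the 14 squamous factors plotted 10 lie to the right of 0 and are called, and of the 17 intestinal factors plotted 13 lie to the left and are called.

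Hox genes record position along the body axis, and the posterior members were divided between the types. Of 15 tested, 2 were higher and 5 lower in squamous cells. Hoxb13, which marks the most distal colon and rectum, was at 148, 53.1, 504 and 213 in squamous and 313, 163, 799 and 592 CPM in columnar cells (-1.20 ± 0.43, adjusted p = 0.00275), and Hoxd13 at 34.8, 52, 72.4 and 70.6 against 103, 95.5, 132 and 202 (-1.19 ± 0.39, adjusted p = 0.00268). Hoxb9 (-1.65, adjusted p = 0.00202) was lower too. Both 13th-group genes were also in non-epithelial barcodes, at 191, 95.8, 567 and 199 and 57.1, 57.8, 97.1 and 59.1. Hoxd8 (2.98 ± 0.66, adjusted p = 0.00149) was higher in squamous cells, from 14.5, 16.6, 10.9 and 16.5 against 1.43, 0.978, 1.69 and 3.53, as was Hoxb7 (1.38 ± 1.15, adjusted p = 0.0425). Leaving out day 6 or either day 1 library left 1 Hox gene higher and 3 lower.

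The keratins not used to choose cells followed the pair that was. Of 9 stratified keratins tested, 8 were higher in squamous cells, with a median of 3.20. Krt17, a keratin of activated basal cells, was at 916, 2468, 1480.0 and 543 CPM against 26.7, 24, 113 and 46.5 (4.71 ± 1.45, adjusted p = 0.000448). Krt13, which is made in the upper layers of non-cornified mucosa, was at 4368, 1631, 4597 and 6959 against 291, 82.3, 1149 and 1149 (3.20 ± 1.08, adjusted p = 0.000614). Krt6a, a keratin of wounded and hyperproliferative epithelium, was at 10142, 16633, 7636 and 6859 against 416, 273, 771 and 1070.3 (4.11 ± 1.44, adjusted p = 0.000679). Its RNA was widespread: at 1000 UMIs, 46.7, 31.3, 49.7 and 66.6% of columnar and 46.5, 37.6, 40.8 and 58.6% of non-epithelial barcodes had a Krt6a UMI, beside 93.8, 98.2, 90.5 and 88.3% of squamous cells. Columnar keratins fell short of that contrast. Krt19 (-1.45 ± 0.49, adjusted p = 0.00142) and Krt20 (-1.54 ± 0.21, adjusted p = 0.000453) were lower in squamous cells, at 325, 518, 652 and 710.0 against 896, 1659.7, 1103 and 2644 for Krt19, and Krt7 was not called (-0.06).

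Among 10 hemidesmosome and laminin-332 genes tested, 3 were higher in squamous cells and none was lower. Col17a1, the transmembrane collagen of the hemidesmosome, was at 368, 533, 289.7 and 155 against 0.953, 4.82, 20.5 and 11.5 CPM (5.32 ± 2.17, adjusted p = 0.000959), and Col7a1, the anchoring fibril collagen (2.80, adjusted p = 0.00248), and Dst, which links keratin to the plaque (1.81, adjusted p = 0.000456), were the others. Itgb4, their integrin partner, had too few counts to be tested. The median over these 10 genes was 0.51, but it was −0.30 with gates above the free RNA share, where 2 of 9 were higher and 2 lower, and −0.01 without day 1 replicate 2, where 1 was lower, while 5 were higher without day 6. Desmosome genes differed by subtype: Dsc3 (4.63, adjusted p = 9.87e-05), Dsg3 (4.50, adjusted p = 0.000635) and Pkp1 (2.65, adjusted p = 0.000327) were among 6 of 10 tested that were higher, while the simple-epithelium forms Dsg2 (-1.50, adjusted p = 0.001) and Pkp2 (-2.09, adjusted p = 0.001) were lower. Dsg3 was at 139, 138, 15 and 66.9 against 2.38, 3.35, 4.44 and 3.42, with the smallest difference in day 3.

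Tight junction and lateral adhesion genes were mostly lower, 13 of 20 tested against 2 higher, with a median of -1.08. Cdh17, the cadherin of intestinal epithelium, was at 113, 108, 206 and 109 against 457, 495, 691 and 963 CPM (-2.29 ± 0.60, adjusted p = 0.0004), and Cgn (-1.48 ± 0.18, adjusted p = 0.000601) and Cldn2 (-1.52 ± 0.39, adjusted p = 0.000921) were lower in all 4 libraries. The pair that was higher consisted of Cdh3, the P-cadherin of basal layers (3.92 ± 0.73, adjusted p = 9.87e-05), and Cldn1, the claudin of the epidermal barrier (5.15 ± 1.91, adjusted p = 0.00136). Cldn1 counts were low, with 5.8, 87.4, 5.47 and 17.5 CPM in squamous cells. The 13 lower genes became 8 without day 6, 6 of 17 on thinned cells and 2 without the library block.

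Upper-layer genes were present beside the basal ones. Of 23 suprabasal and cornified envelope genes tested, 16 were higher and 3 lower. Krtdap, a secreted marker of differentiating keratinocytes, was at 1137, 35.4, 439 and 378 against 26.2, 0.698, 41.6 and 46.5 CPM (4.18 ± 1.18, adjusted p = 0.000404), and was thus far lower in the squamous cells of day 1 replicate 2 than in the other three. At 1000 UMIs 39.6, 1.76, 20.9 and 26.8% of squamous cells had a UMI of it. Ly6d (3.44, adjusted p = 0.000445) and Dapl1 (3.46, adjusted p = 9.87e-05) were higher in all 4 libraries, and Ly6d did not share the low value of day 1 replicate 2, at 1386, 930.4, 946 and 1502. The genes that went the other way were Gsdma (-2.02, adjusted p = 0.00415), Sprr2a3 (-1.38, adjusted p = 0.00445) and Sprr2b (-1.32, adjusted p = 0.0244). Sprr2a3, a small proline-rich protein that gut epithelium also makes, was at 162, 252, 407 and 756 in squamous and 426, 680.4, 583 and 3406 in columnar cells.

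**Figure D3:**
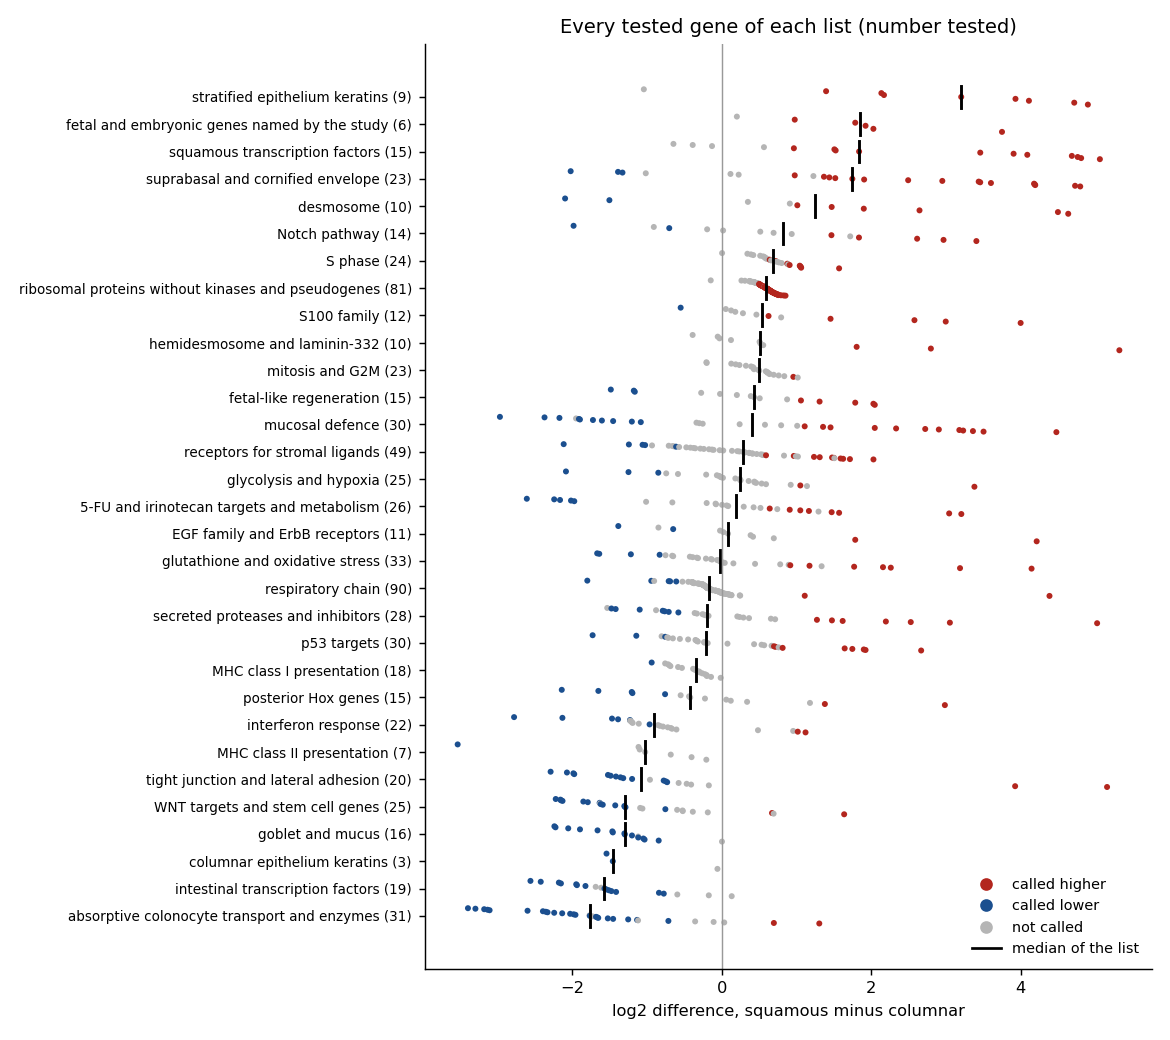
Log2 difference (squamous minus columnar) of every tested gene of 31 lists, coloured by call, with the list's median as a black bar. Medians run from 3.20 for stratified keratins to −1.76 for colonocyte transport and enzyme genes. Of 90 respiratory chain genes, with a median of −0.17, 7 are called.

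The 12 genes with the largest called increase, among those with the same sign and at least 10 squamous UMIs in every library, were Bnc1, Tmprss11a, Aqp3, Col17a1, Serpinb10, Calcb, P3h2, Trp63, Serpinb2, Krt16, Nat8l and Sostdc1, with differences from 5.63 to 4.81. Bnc1, a zinc finger factor of basal keratinocytes, was at 37.7, 57.5, 19.1 and 18.3 CPM against 0, 0.629, 1.48 and 0.471. Aqp3, the glycerol channel of basal epidermis, was at 473, 246, 372 and 363 against 3.34, 0.838, 29.8 and 15.5. Calcb, which encodes a calcitonin gene-related peptide better known from sensory neurons, was at 1424, 1501, 547 and 539 against 15.3, 11.7, 35.1 and 53.5 (5.18 ± 1.82, adjusted p = 0.000799), and at 1000 UMIs was found in 45.8, 54.1, 26.9 and 26.6% of squamous and 2.21, 2.14, 3.55 and 5.47% of columnar cells. Sostdc1, a secreted BMP and WNT antagonist, was at 34.8, 138, 41 and 76.6 against 0.953, 2.17, 3.8 and 3.3. P3h2, a collagen prolyl hydroxylase, had the steadiest difference of the 12 (5.06 ± 0.47, adjusted p = 9.58e-05), from 95.7, 76.3, 54.7 and 55.8 against 1.91, 2.37, 2.54 and 1.41.

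For 11 of these 12 genes both late differences were smaller than both early ones, P3h2 being the exception by its day 6 value. The level in columnar cells moved with this. Over the 223 called genes higher by more than 3, the median columnar level was 4.38%, 4.46%, 13.2% and 8.25% of the squamous level, and the median non-epithelial level 12.2%, 10.6%, 24.4% and 30.6%. The part of free RNA in the smaller late differences was not tested for each gene.

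**Figure D4:**
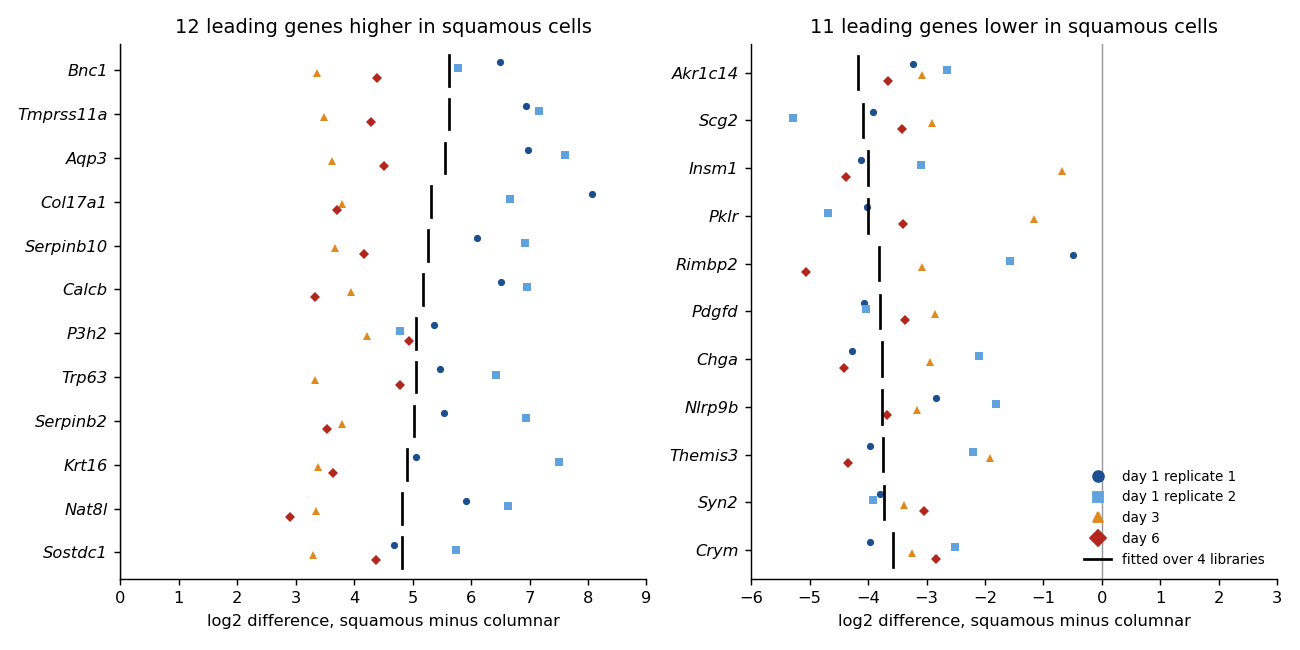
Log2 difference (squamous minus columnar) in each library (coloured points) and fitted (black bar) of 12 leading genes higher (left) and 11 lower (right) in squamous cells. The genes higher in squamous cells sit between 2.90 and 8.07, with day 3 and day 6 mostly to the left of both day 1 libraries.

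The leading genes on the columnar side included Akr1c14, Scg2, Insm1, Pklr, Rimbp2, Pdgfd, Chga, Nlrp9b, Themis3, Syn2 and Crym, from -4.18 to -3.58. Chga, the granule protein chromogranin A, was at 2.9, 5.53, 6.83 and 6.17 CPM in squamous and 63.6, 25.1, 55.4 and 139.9 in columnar cells (-3.76 ± 1.11, adjusted p = 0.000361). Scg2, another granule protein, had 0, 0, 0 and 1.98 against 5.96, 16.1, 2.75 and 25.2, and Insm1, the endocrine zinc finger factor, 0, 0, 2.73 and 0.494 against 6.91, 3.21, 4.65 and 18.6. The columnar gate does not bar endocrine cells. Over 8 enteroendocrine markers the summed level was 757, 672, 468 and 1631 in columnar and 231, 159, 391 and 264 in squamous cells. Non-epithelial barcodes held 310, 1224, 188 and 513, above columnar cells in day 1 replicate 2. In that library Chga and Scg2 were also higher in non-epithelial barcodes, at 38.8 and 24.2 CPM. Pdgfd, a platelet-derived growth factor, had the highest columnar levels of these on day 1, with 5.8, 8.85, 4.1 and 1.48 against 105, 152, 32.3 and 19.3 (-3.80 ± 0.58, adjusted p = 9.58e-05). Akr1c14, Scg2 and Syn2 had 0 UMIs in 3 of 4 squamous sums, and the fitted values of such genes depend on the prior count and are no bounds.

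Promoter sequence was looked up for the genes that moved together. RefSeq windows of GRCm38.p6, from 250 bases before to 50 after each annotated start, were found for 9437 of the 12375 genes tested. The AP-1 motif TGANTCA, read on both strands, was in a window of 6.57% of these genes (5.44% of windows), 9.21% of 814 called higher and 15.5% of the 148 higher by over 3. For genes called lower it was 7.83% of 1111. The HNF4 motif CAAAGTCCA was in 0.53% of all, 1.17% of those lower and 2.83% of the 247 lower by over 2, which is 7 genes, and in 0.614% of those higher. The GATA motif AGATAAG was in 2.19% of all, 3.87% of those lower and 1.72% of those higher. The CDX motif TTTATGG was in 2.25% of all, 3.33% of those lower and 2.33% of those higher, the SOX motif AACAAAG in 4.85%, 4.95% and 6.27%, the AP-2 motif GCCNNNGGC in 28.6%, 30.0% and 26.4%, and the p53-family pair of CATG cores with 6 bases between them in 0.318%, 0.18% and 0.369%. Shares for genes higher by over 3 and lower by over 2 were 15.5% and 7.69% for AP-1 and 1.35% and 2.83% for HNF4. They were 2.03% and 5.26% for GATA, 4.73% and 4.45% for CDX, and 8.78% and 7.29% for SOX. For AP-2 they were 20.9% and 25.9%, and for the p53-family pair 0.676% and 0%. The CDX shares among these rest on 7 and 11 genes. These shares are descriptions with no test, a match is not a binding site, and genes with more annotated starts had more windows to match.

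Windows of 3 genes higher in squamous cells and 2 lower are shown to make the letters visible, 5′ to 3′ on the gene's strand, with every match of the 7 motifs in capitals. The windows of Krt13 (chr11:100120528-100120827, minus strand), Ecm1 (chr3:95739520-95739819, minus strand) and Serpinb2 (chr1:107511173-107511472, plus strand) hold AP-1 matches, that of Muc13 (chr16:33794239-33794538, plus strand, 1 of its annotated starts) an HNF4 match running on into an AP-1 match, and that of Pklr (chr3:89135892-89136191, plus strand) a GATA match. Krt13, Serpinb2, Muc13 and Pklr each had another window, not shown. That of Pklr held no match. That of Muc13 held an AP-1 and a p53-family match but no HNF4 match, and that of Krt13 an AP-1 match. The other Serpinb2 window overlaps the one shown and held the same AP-1 match.
Krt13: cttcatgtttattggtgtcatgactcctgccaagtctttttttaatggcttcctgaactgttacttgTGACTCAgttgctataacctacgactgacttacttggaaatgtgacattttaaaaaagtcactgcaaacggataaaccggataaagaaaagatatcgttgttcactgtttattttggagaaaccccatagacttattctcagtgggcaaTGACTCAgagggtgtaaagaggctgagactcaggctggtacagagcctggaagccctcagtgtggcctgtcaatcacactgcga
Ecm1: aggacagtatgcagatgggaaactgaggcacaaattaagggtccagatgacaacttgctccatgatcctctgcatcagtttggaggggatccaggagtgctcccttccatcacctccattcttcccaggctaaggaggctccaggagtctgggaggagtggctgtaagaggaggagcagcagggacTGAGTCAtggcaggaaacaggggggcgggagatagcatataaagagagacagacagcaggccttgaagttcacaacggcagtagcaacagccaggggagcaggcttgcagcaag
Serpinb2: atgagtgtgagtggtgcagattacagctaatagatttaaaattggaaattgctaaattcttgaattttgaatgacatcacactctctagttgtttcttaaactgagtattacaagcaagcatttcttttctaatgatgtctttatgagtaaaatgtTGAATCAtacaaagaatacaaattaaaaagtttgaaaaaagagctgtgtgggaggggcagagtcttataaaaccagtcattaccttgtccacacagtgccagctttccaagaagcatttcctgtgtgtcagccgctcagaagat
Muc13: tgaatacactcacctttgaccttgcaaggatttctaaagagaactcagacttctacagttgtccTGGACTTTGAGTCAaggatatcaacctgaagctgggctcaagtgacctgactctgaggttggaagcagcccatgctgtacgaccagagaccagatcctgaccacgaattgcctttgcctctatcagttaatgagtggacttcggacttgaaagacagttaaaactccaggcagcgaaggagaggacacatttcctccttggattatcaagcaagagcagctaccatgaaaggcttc
Pklr: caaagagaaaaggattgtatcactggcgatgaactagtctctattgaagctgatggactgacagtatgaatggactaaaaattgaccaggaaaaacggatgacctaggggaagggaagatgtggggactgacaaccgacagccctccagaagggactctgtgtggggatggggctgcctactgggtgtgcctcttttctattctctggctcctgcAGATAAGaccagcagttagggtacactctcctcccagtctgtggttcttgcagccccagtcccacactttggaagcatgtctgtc

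The differentiated functions of colon epithelium were lower in squamous cells. Of 31 colonocyte transport and enzyme genes tested, 23 were lower and 2 higher (median -1.76). Clca4b, a chloride channel regulator of surface colonocytes, was at 8.7, 19.9, 19.1 and 87.2 CPM against 87, 123, 72.3 and 1449 (-3.10 ± 0.92, adjusted p = 0.000527). Tspan8 (-2.13 ± 0.51, adjusted p = 0.000393), a tetraspanin, and Ugt2b34 (-2.39 ± 0.61, adjusted p = 0.000477), a glucuronosyltransferase, were lower in all 4 libraries. Mall (1.31, adjusted p = 0.00768) and the phosphate carrier Slc20a1 (0.70, adjusted p = 0.0329) were higher.

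Of 16 goblet and mucus genes, 14 were lower and none higher. Without the library block 1 of 16 was lower. With columnar cells of at least 5 secretory marker UMIs removed, 5 of 14 tested were lower. That removal counted genes of this list, such as Muc2, and was made on the columnar side alone. Muc13, a membrane mucin, was at 339, 347, 1095 and 642 against 1242, 1166, 2770.1 and 3928 CPM (-1.89 ± 0.53, adjusted p = 0.000564), and Fut2 (-2.23, adjusted p = 0.00122) and St6galnac6 (-2.22, adjusted p = 0.000866), enzymes that finish mucin glycans, were lower as well. Muc2, the gel-forming mucin, was at 2036, 663, 1619 and 623 against 3907, 1272, 2777 and 1713 (-1.03 ± 0.30, adjusted p = 0.00263), with 2892, 950.2, 3403 and 791 in non-epithelial barcodes, above the squamous level in all 4 libraries. Mucin RNA was found in cells of every kind: 42.1, 45.4, 74.6 and 59.1% of non-epithelial barcodes had a Muc13 UMI at 1000 UMIs, beside 43.8, 42.9, 63.2 and 49.1% of squamous and 65, 64.9, 88.5 and 87.5% of columnar cells.

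Stem cell and WNT target genes were lower on the whole, 14 of 25 against 2 higher, with a median of -1.29. Nkd1, a feedback inhibitor of WNT, was at 60.9, 38.7, 16.4 and 1.98 CPM against 281, 198, 46.5 and 13.8 (-2.22 ± 0.47, adjusted p = 0.000361). Slc12a2 (-1.30 ± 0.13, adjusted p = 0.000723), a cotransporter high in crypt bases, had nearly the same difference in every library. Cd44 (1.64 ± 0.74, adjusted p = 0.00259) and Myc (0.67 ± 0.25, adjusted p = 0.02), WNT targets that squamous basal cells also express, were higher. Cd44 was at 734, 1356, 584 and 546 against 231, 312, 393 and 123, and at 952, 1227, 362 and 728 in non-epithelial barcodes. With the gates raised to more than 2 times the free RNA share, which kept 214, 561, 164 and 1316 columnar cells, 5 WNT genes were lower and 4 higher of 22 tested, and Nkd1 changed sign. Without the library block 1 of 25 was lower. Columnar levels of Nkd1, Prox1 and Lgr5 were themselves lower in day 6 than in both day 1 libraries.

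Notch signals between neighbouring cells through ligands and receptors in the membrane. Of 14 Notch pathway genes tested, 5 were higher and 2 lower. The receptor Notch3 was at 75.4, 42, 72.4 and 74.1 against 15, 6.15, 10.6 and 5.06 CPM (2.97 ± 0.63, adjusted p = 0.00025), and the ligands Jag1 (2.61 ± 0.72, adjusted p = 0.000386) and Jag2 (3.41 ± 0.76, adjusted p = 0.0012) were higher in all 4 libraries. The ligand Dll4 (-1.98 ± 0.20, adjusted p = 0.00676) and the protease Adam10 (-0.70, adjusted p = 0.038) were lower. Among 11 EGF family genes, the ligands Nrg1 (4.21 ± 0.87, adjusted p = 0.000146) and Ereg (1.79 ± 0.44, adjusted p = 0.00322) were higher, and the receptors Erbb3 (-0.65, adjusted p = 0.0448) and Erbb4 (-1.38, adjusted p = 0.0481), which bind neuregulins, lower. Nrg1 was at 52.2, 136, 36.9 and 71.1 in squamous and 3.1, 3.49, 4.23 and 4.48 in columnar cells, and at 152, 105, 38.8 and 239 in non-epithelial barcodes, above squamous cells in 3 of 4 libraries.

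Receptors for signals from stroma were split, 10 of 49 higher and 5 lower, beside 8.97% and 12.1% of all genes tested. The count of higher genes fell to 5 without day 1 replicate 1 and to 6 without day 3 or without day 6, and on thinned cells 4 of 34 were higher and 4 lower. Fzd6, a frizzled receptor of polarised epidermis (2.03 ± 0.25, adjusted p = 0.000279), the insulin-like growth factor receptor Igf1r (1.63 ± 0.59, adjusted p = 0.00148) and the proteoglycan Sdc1 (1.24 ± 0.39, adjusted p = 0.00195) were higher. Fgfr4 (-2.11 ± 1.13, adjusted p = 0.00364), Ifngr2 (-1.24 ± 0.38, adjusted p = 0.00193) and Tgfbr2 (-1.06 ± 0.43, adjusted p = 0.00457) were lower, so that subunits of the interferon gamma and TGF-beta receptors stood at 49.3, 81.9, 109 and 98.3 and 26.1, 84.1, 56 and 50.4 CPM in squamous cells, against 165, 171, 200.3 and 258 and 88.4, 146, 104 and 107 in columnar cells.

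Genes that the study groups as fetal and embryonic were mostly higher, 5 of 6 tested, though this list was drawn from tumors of the same study and its count is no independent evidence of its direction. Ecm1, an extracellular matrix protein, was at 255, 896, 234 and 576 against 16.2, 21.7, 33.2 and 75.7 CPM (3.75 ± 1.18, adjusted p = 0.000464), Phlda3 at 394, 381, 737 and 537 against 144, 133, 264 and 54.5 (1.92 ± 0.90, adjusted p = 0.00251), and Anxa1 at 1955, 8371, 1003 and 4392 against 556, 968, 598 and 1545 (1.79 ± 0.99, adjusted p = 0.00465). Serpinb5 (0.98 ± 0.84, adjusted p = 0.0387) was called, and Il1rn (0.20 ± 0.48) was not. A list of fetal-like regeneration genes of the gut was less one-sided, with 5 of 15 higher and 3 lower. Anxa5 (1.06, adjusted p = 0.00385) was higher, while Clu (-1.17, adjusted p = 0.00616), which marks revival stem cells, Spp1 (-1.16, adjusted p = 0.0345) and Msln (-1.48, adjusted p = 0.0406) were lower. Only 1 of this list was lower when day 3 or either day 1 library was left out.

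Defence genes moved both ways. Of 30 tested, 12 were higher and 10 lower, and on thinned cells 5 and 9 of 21. Defb1, a beta-defensin (4.48 ± 1.25, adjusted p = 0.000831), and Il1f9, the interleukin IL-36 gamma (3.50 ± 0.51, adjusted p = 0.000725), were higher at low counts. Pigr, the carrier of secretory IgA, was at 23.2, 31, 88.8 and 170.4 CPM against 129, 138, 194 and 1296 (-2.17 ± 0.76, adjusted p = 0.0011), and Lypd8, which keeps flagellated bacteria off colonic epithelium, at 649.6, 758, 1945 and 2985 against 2441, 2559.7, 4558 and 19881 (-1.91 ± 0.62, adjusted p = 0.000721). Duox2 (-2.37 ± 0.31, adjusted p = 0.000192), an oxidase of the gut surface, was lower. S100a9 was higher in squamous cells, at 92.8, 91.8, 168 and 30.1 against 25.3, 26.7, 87.1 and 12 (1.46 ± 0.43, adjusted p = 0.00123), beside 2239.7, 2052, 255 and 288 in non-epithelial barcodes. The 9 neutrophil markers, which include it, summed to 216, 226, 299 and 51.4 in squamous and 93.3, 109, 193 and 38.6 in columnar cells, and their part in the S100a9 difference was not tested. Other S100 genes included S100a4 (3.00 ± 1.03, adjusted p = 0.000663) and S100a3 (2.58 ± 1.29, adjusted p = 0.0029), both higher, and S100a1 (-0.55, adjusted p = 0.0452), lower. S100a4 was at 650.4, 299, 796 and 334 in non-epithelial barcodes and 386, 511, 892 and 205 in squamous cells.

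Antigen presentation genes had few calls. Of 18 MHC class I genes 1 was lower, H2-T23 (-0.93 ± 0.40, adjusted p = 0.00963), and all 18 fitted differences were below 0. With gates above the free RNA share 8 of 15 were lower. Of 7 class II genes the transactivator Ciita was lower (-3.53 ± 1.29, adjusted p = 0.00269), at 0, 0, 2.73 and 4.2 against 3.81, 2.51, 5.28 and 63.4 CPM, mostly through day 6, and non-epithelial barcodes held 65.2, 44.3, 4.32 and 103. Of 22 interferon response genes 6 were lower and 2 higher, the higher count being close to the 8.97% of all genes tested. Igtp (-2.13 ± 1.25, adjusted p = 0.00195), Irgm1 (-1.46 ± 2.51, adjusted p = 0.0198) and Ifit2 (-2.77 ± 1.44, adjusted p = 0.00852) were lower, with levels that were highest in day 6, where Ifit2 was at 7.41 in squamous and 74.7 in columnar cells. Without day 6 none of 19 tested was lower and 1 was higher. Ifi27 (1.02, adjusted p = 0.0108) and Ifitm3 (1.12, adjusted p = 0.0464) were the genes higher in squamous cells. Without day 3 none of 22 was higher and 9 were lower. On thinned cells 1 of 11 was higher and none was lower.

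Of 26 genes for targets and metabolism of 5-FU and Irinotecan, 8 were higher and 5 lower. Dpyd, whose enzyme degrades 5-FU, was at 49.3, 53.1, 42.4 and 150.4 CPM in squamous and 4.29, 5.66, 7.82 and 12.7 in columnar cells, with no overlap (3.20 ± 0.51, adjusted p = 0.000112). At 1000 UMIs 4.17, 6.47, 2.99 and 12.2% of squamous and 0, 0.692, 0.768 and 1.46% of columnar cells had a Dpyd UMI. Carboxylesterases can activate irinotecan, and Ces2g (1.47 ± 0.56, adjusted p = 0.00219) and Ces1f (3.04 ± 0.99, adjusted p = 0.00541), members of that family, were higher. The efflux pumps Abcg2 (-2.01 ± 0.57, adjusted p = 0.00149), Abcc2 (-1.97 ± 0.52, adjusted p = 0.00151) and Abcb1a (-2.16 ± 1.14, adjusted p = 0.00808) were lower, at 8.7, 4.43, 4.1 and 15.6 against 19.3, 14.3, 23 and 71 for Abcg2. All groups were treated, so these are levels under treatment. On thinned cells 4 of 15 genes were higher and none was lower, and 5 were higher when either day 1 library or day 3 was left out.

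Of 30 p53 targets, 8 were higher and 3 lower, with a median of -0.21. The lower count was close to the 12.1% of all genes tested. Ak1 (2.67, adjusted p = 0.00149), Epha2 (1.65, adjusted p = 0.00166) and Phlda3 were among the higher, and Gdf15 (-1.72, adjusted p = 0.0228), Btg2 (-0.75, adjusted p = 0.0169) and Trp53inp1 (-1.14, adjusted p = 0.0442) were the lower ones. S phase genes were higher in part: 9 of 24 were called and none was lower, with Rrm2 (1.57 ± 0.90, adjusted p = 0.00646), Tipin (1.06 ± 0.53, adjusted p = 0.011) and Dtl (1.06 ± 0.31, adjusted p = 0.0115) leading. Rrm2, a subunit of ribonucleotide reductase, was at 165, 139, 95.7 and 71.4 against 30.7, 27.8, 50.7 and 43.3 CPM. Of 23 mitosis genes 1 was called, Anln (0.96, adjusted p = 0.0261), while Mki67 (0.50 ± 1.35) and Top2a (0.43 ± 0.74) were not. The S phase count was 4 without day 1 replicate 1, 2 on thinned cells and 20 of 21 with gates above the free RNA share, where 10 of 21 mitosis genes were higher. Without day 6, 4 mitosis genes were higher. The p53 targets called lower numbered 0 without day 1 replicate 1, 1 without day 1 replicate 2 or day 3 and 5 without day 6, and the median turned to 0.12 without day 1 replicate 2, 0.13 on thinned cells and 0.61 with gates above the free RNA share.

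Among metabolic lists, glutathione and oxidative stress genes had 7 of 33 higher and 4 lower, the lower count being close to the 12.1% of all genes tested. Gsto1, a glutathione transferase, was at 2918, 4784, 3640.5 and 10109 against 570.1, 592, 1227 and 2339.9 CPM (2.26 ± 0.60, adjusted p = 0.000361), and Aldh3a1, an aldehyde dehydrogenase of stratified epithelium (3.19 ± 0.68, adjusted p = 0.000236), and catalase, Cat (1.77 ± 0.31, adjusted p = 0.000366), were higher. Adh1 (-1.63, adjusted p = 0.00219), Txnrd1 (-1.66, adjusted p = 0.00305) and Cbr1 (-1.21, adjusted p = 0.0051) were lower. Of 25 glycolysis and hypoxia genes 2 were higher and 3 lower, close to the 8.97% and 12.1% of all genes tested, so the genes named next do not set this list apart. The carbonic anhydrases differed in opposite directions: Car12 (3.38 ± 0.84, adjusted p = 0.000217) was at 325, 139, 309 and 312 against 14.3, 19.3, 49.9 and 24.5, and Car9 (-2.08 ± 0.86, adjusted p = 0.00299) at 14.5, 6.64, 51.9 and 16.1 against 45, 30.7, 107 and 137. Ldha (1.05, adjusted p = 0.0272) was higher, and Egln3 (-1.24, adjusted p = 0.00419) and Ddit4 (-0.85, adjusted p = 0.0181) lower. Of 90 respiratory chain genes 2 were higher and 5 lower, led by Ndufa4l2 (4.38, adjusted p = 0.000663) and Ndufa4 (1.11, adjusted p = 0.00734) above and Cox7a1 (-1.79, adjusted p = 0.0199), Sdhd (-0.71, adjusted p = 0.021) and Ndufa6 (-0.69, adjusted p = 0.0227) below. With gates above the free RNA share 26 of 87 were lower, and with 1 library left out 0 (without day 6), 1 (without day 1 replicate 1) or 3 of 90.

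Ribosomal protein genes shifted together by a small amount. Of 81 ribosomal protein genes 61 were higher and none lower, with a median of 0.59 and values from −0.14 to 0.85. They made up 10.5%, 9.03%, 9.39% and 12.7% of squamous UMIs, 7.17%, 7.03%, 6.90% and 6.94% of columnar UMIs and 6.74%, 6.05%, 6.54% and 9.15% of non-epithelial UMIs, so the squamous share was the highest in each library. Rps16 (0.85, adjusted p = 0.0051) and Rpl13a (0.79, adjusted p = 0.00691) were among those with the lowest adjusted p-values. Without day 1 replicate 1 the median was 0.63 and 1 gene was called, without day 3 it was 0.64 and 36 were called, and on thinned cells 48 of 79 were called. None of 81 was called without the library block. The name prefixes that define the wider list of 100 (66 higher, 1 lower) also catch pseudogenes and kinases such as Rps6ka5 (2.35, adjusted p = 0.000615) and Rps6ka1 (-0.89, adjusted p = 0.0288), and pseudogene copies can share reads with the true gene. Secreted proteases and inhibitors had 7 of 28 higher, with Serpinb2 (5.02, adjusted p = 0.000663), Serpine2 (2.53, adjusted p = 0.000428) and Adam8 (2.20, adjusted p = 0.00122) first, and 7 lower, with Tmprss2 (-1.42, adjusted p = 0.00127), Mmp7 (-1.09, adjusted p = 0.00235) and Tmprss4 (-1.47, adjusted p = 0.00345) first. The lower ones numbered 3 without either day 1 library and 4 without day 3 or day 6. Serpine2 and Adam8 were higher still in non-epithelial barcodes in 3 and 2 libraries, at 199, 292, 183 and 103 and 228, 177, 23.7 and 68.6 CPM, against 125, 154, 36.9 and 166 and 66.7, 125, 62.9 and 80.8 in squamous cells.

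Whether the contrast between the types changed from early to late libraries was tested by an interaction of type with late, 2 libraries on each side. It was past an adjusted p of 0.05 for 38 genes (0.307%), 26 with a lower and 12 with a higher difference late, and 1336 had an unadjusted p below 0.05. Of the 26, 23 were genes called higher in squamous cells. Pitx1 (change -3.03, adjusted p = 0.013), Calcb (-3.15), Tmprss11a (-3.17), Dmkn (-2.51), Cfap53 (-2.86) and BC037156 (-4.33) had the lowest p-values. Calcb fell from library differences of 6.51 and 6.96 to 3.95 and 3.32. Its columnar level was 15.3, 11.7, 35.1 and 53.5 and its non-epithelial level 14.7, 36.8, 77.7 and 77.1 CPM, both higher late. Dmkn, dermokine of the upper epidermal layers, was at 902, 315, 629 and 253 against 21.7, 6.5, 92.3 and 27.9. BC037156 was nearly absent from day 3, at 1.37 against 2.75.

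Genes whose difference was higher late included Ifitm1 (change 2.65, adjusted p = 0.013), Jchain (3.04), Sntb1 (2.89), Rbms3 (4.18), Tex15 (3.08) and Cdh11 (4.54). Ifitm1, an interferon-induced membrane protein, was at 191, 99.6, 896 and 764 CPM in squamous and 276, 125, 215 and 146 in columnar cells, so it was below columnar on day 1 and above it in day 3 and day 6. Rbms3, an RNA-binding protein, was at 29, 56.4, 71.1 and 99.3 against 266, 293, 54.5 and 17.8, and most of its change lay in columnar cells. Lgr5, the crypt stem cell receptor, belonged to the same group (adjusted p = 0.0479), with 17.4, 23.2, 54.7 and 24.2 in squamous and 287, 175, 108 and 19.7 in columnar cells, and library differences of -4.01, -2.89, -0.98 and 0.29. Jchain, the joining chain of plasma cell immunoglobulin, is not an epithelial product, and its level in non-epithelial barcodes was 825, 748, 2.16 and 783.

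**Figure D5:**
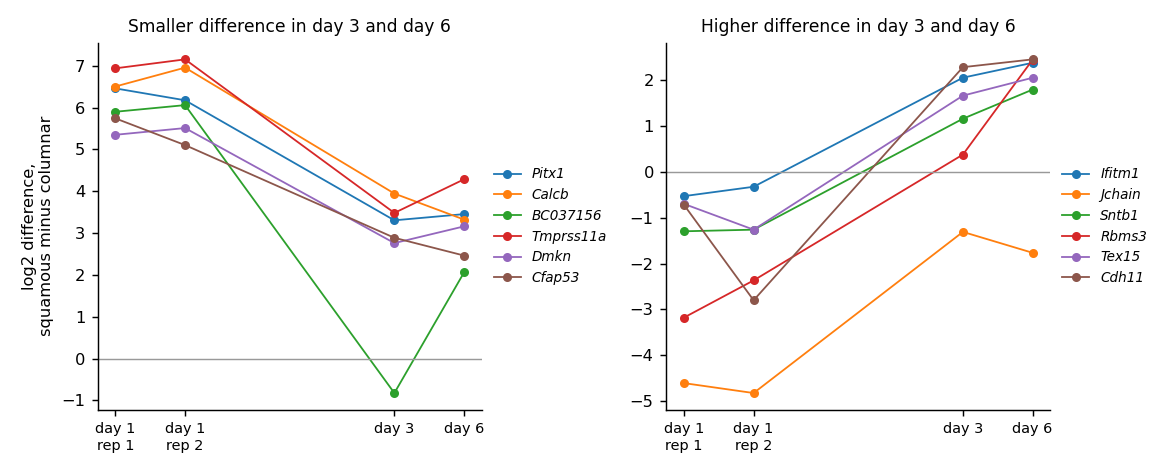
Log2 difference (squamous minus columnar) in each library of the 6 genes per direction with the lowest p for a change between early (day 1) and late (day 3, day 6) libraries. Differences of the left panel are lower in both late libraries for all 6 genes, and those of the right panel higher for all 6.

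The number of genes called in this comparison moved with the processing. It was 0 with gates above the free RNA share. With 1 library left out it was 34 without day 1 replicate 1, 0 without day 1 replicate 2, 805 without day 3 and 67 without day 6, and in each of these fits 1 side of the comparison rests on 1 library. The early and late libraries also differed in sex-linked transcripts: over both types Xist, which females express, had 0, 1, 155 and 1401 UMIs, and Eif2s3y, a Y-linked gene, 351, 1186, 0 and 2. Stage, animal sex and free RNA cannot be told apart in it. Within a library squamous and columnar cells shared these transcripts. An interaction with index structure (dual against single) was called for 0 of 12375 genes (0.0%) by edgeR, with 248 at an unadjusted p below 0.05, and for 0 by DESeq2.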

How the data were processed

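Counts were deposited by the authors as raw UMI counts per barcode and gene, made from inDrop libraries with dropEst on reads aligned to GRCm38, with no normalization. The authors state filters of at least 500 genes and at most 15% mitochondrial counts, yet the treated files held 752, 2450, 1419 and 2830 barcodes, some beyond these limits, which were left out here, leaving 748, 2403, 1419 and 2826 barcodes. Totals before this step were 5132360, 16904947, 6659486 and 16079367 UMIs. Groups were taken from the sample labels.

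Cells were gated as described in the report, and the counts of each library and type were summed. Sums were scaled by TMM, filtered with filterByExpr and fitted with edgeR 4.0.16 (R 4.3.3) as library plus type, with quasi-likelihood tests and Benjamini-Hochberg adjustment at 0.05. The pairing is that both types come from the same library. Interactions of type with late (day 3 and day 6) and with dual index were fitted in the same way. Levels are CPM computed here, scaled by TMM for squamous and columnar cells. Levels of the gate genes, marker sums and non-epithelial barcodes are unscaled. Library differences use log2 values with a prior count of 2. Genes absent from a file (Xist, Eif2s3y and Gm27048 in 1 file each) were set to 0 there. The fit was tested on simulated data. The members and gene lists were chosen with earlier results of these data known. No doublets were removed in the main fit, and Scrublet scores served as an alternative.

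Genes are named by a rule: the 12 called genes with the largest difference per direction (same sign in all 4 libraries, at least 10 UMIs in the higher type in each, no mitochondrial, Gm or Rik models), up to 3 called members per list and direction with the lowest adjusted p, all members of both transcription factor lists and of the study's fetal list, and up to 6 genes per direction of each interaction. Krt7, Muc2, Lgr5, Mki67, Top2a and the sex-linked genes were added after their values were seen. Results for some genes are not reported here. Promoter windows of genes on chromosome 18 were not used. Alternatives were DESeq2 1.42.0, upper quartile scaling, no low count filter, no library block, other gate limits, a gate above free RNA, no exclusion UMIs, thinning to 1000 UMIs, removal of cells with at least 5 UMIs of secretory markers (columnar side alone, called secretory below), doublet scores or plasma cells (the last chosen after seeing the data), and leaving out each library. Intervals cover counting error only, and p-values measure the spread between these 4 libraries.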

Additional observations from a re-analysis of the deposited data

Results flagged for a closer look

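Among 189 named genes, 6 had 1 library whose difference lay far from the other 3, no more than the 1 in 20 or so that chance alone flags. Values are squamous minus columnar on the log2 scale. In day 6 the difference was 3.29 for Phlda3, against 1.45 to 1.52 in the other libraries, and 0.036 for Msln, against −1.73 to −1.58. In day 3 it was 1.16 for Dst, against 1.93 to 2.05, 1.27 for Serpine2, against 2.68 to 2.93, and −0.24 for Ndufa6, against −0.88 to −0.81. In day 1 replicate 1 it was 5.14 for Foxe1, against 2.43 to 2.80.

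For 19 named genes the difference between the types itself differed between late and early libraries (interaction term, edgeR's quasi-likelihood test, adjusted p from 0.013 to 0.0479). It was lower late for Aqp3 (change of −3.55), BC037156 (−4.33), Calcb (−3.15), Cfap53 (−2.86), Col17a1 (−3.46), Dmkn (−2.51), Krtdap (−2.29), Nat8l (−3.48), Pitx1 (−3.03), Serpinb10 (−2.83), Serpinb2 (−3.25) and Tmprss11a (−3.17). It was higher late for Cdh11 (4.54), Ifitm1 (2.65), Jchain (3.04), Lgr5 (3.01), Rbms3 (4.18), Sntb1 (2.89) and Tex15 (3.08). Early and late libraries differed in sex-linked transcripts and in squamous keratins in non-epithelial barcodes as well, and these cannot be told apart from stage.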

How the results depend on the processing

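Counts of genes higher and lower in squamous cells stayed within 1.5 times 1110 and 1502 under every alternative but 3. These were thinning to 1000 UMIs (499 and 568, of 7777 genes tested), removal of secretory columnar cells (538 and 588, of 8878) and no library block (489 and 268). Cells counted as secretory had at least 5 UMIs over genes such as Muc2, Lyz1 and Mmp7. Their removal left 21, 422, 177 and 793 columnar cells. That limit was also met by 93.8, 62.4, 79.1 and 64.5% of squamous cells and 95.6, 61.3, 97.2 and 60.3% of non-epithelial barcodes. It therefore does not pick secretory cells alone. Leaving out 1 library gave 823 to 948 higher and 1007 to 1244 lower. Without the filter on low counts they were 1369 and 2080, and with the gate above free RNA 1616 and 1837, of which 847 and 1078 were genes called in the main analysis. The 38 genes with a late change became 104 with DESeq2, 391 without the filter, 78 with a gate of over 3 times the other type, 10 after thinning, 0 with the gate above free RNA (667 at an unadjusted p below 0.05), 77 without secretory columnar cells, and 0 to 805 with 1 library left out. The 0 genes for index structure became 13 without the filter and 1 without secretory columnar cells.

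Of 169 named genes called, 76 kept direction and call in every alternative that could test them, 91 lost the call without the library block, and 4 took the other sign somewhere. These were Muc2 (0.73) and Mmp7 (0.38) after removal of secretory columnar cells, and Nkd1 (0.036) and Trp53inp1 (0.012) with the gate above free RNA. That removal counted UMIs of both Muc2 and Mmp7 and was made on the columnar side alone, so it fixes the turn of their sign and is no test of them. Among genes not called, the sign turned for Tbx3 (1.23) and Il1rn (−0.53) with the gate above free RNA, for Krt7 after thinning (0.086) and with upper quartile scaling (0.011). With 1 library left out the values ran from −0.37 to 0.17 for Krt7 (above 0 without either day 1 library), −0.081 to 0.77 for Mki67 (below 0 without day 1 replicate 1), −0.0072 to 0.33 for Il1rn (below 0 without day 1 replicate 2), −0.015 to 0.29 for Foxa1 (below 0 without day 6) and −0.41 to 0.38 for Vdr (above 0 without day 6). The causes were not tested. The 48 squamous cells of day 1 replicate 1 set the depth of the smallest sum.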
